A study of Mus musculus with 8 samples.

Results

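Marrow stromal niche factors are the genes through which the leptin receptor-positive (LepR+) stromal cells of bone marrow hold and feed blood-forming cells, and 10 of them were followed here in mouse knee tissue. The members were listed by name and found by their mouse Ensembl identifiers: Cxcl12, Kitl, Il7, Angpt1, Vcam1, Lepr, Ebf3, Foxc1, Esm1 and Pdzrn4. They are 10 of the 52636 genes in the files. Of these 10, 9 were protein-coding genes with a TPM over 1 (reads per transcript length, scaled to a fixed total in each library) in at least 1 library, as were 12538 genes in all. Pdzrn4 did not pass that filter.

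The study asked how loss of Oscar, which encodes a collagen receptor, alters the response of the joint to injury. Articular cartilage of C57BL/6 male mice was compared between wild type (WT) and Oscar-/-, a knockout carried in every cell, after sham surgery or after destabilization of the medial meniscus (DMM), an operation that loosens the joint and leads to osteoarthritis. The 4 groups were sham and DMM of each genotype, each sampled at 2 and at 4 weeks after surgery, with an age of 10 weeks in the labels and of 10 to 12 weeks at surgery in the protocol. Each of the 8 libraries pooled 10 cartilages and no condition had another library, so the spread between animals of a condition is not known.

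LepR+ cells lie along the sinusoids of the marrow as a mesh of long processes and are the main marrow source of CXCL12 and of stem cell factor, the product of Kitl. CXCL12 draws blood stem cells and B cell precursors to the niche and keeps them there, stem cell factor sustains stem and progenitor cells, and IL-7 drives B cell precursors. The transcription factors FOXC1 and EBF3 keep these stromal cells from turning into fat or bone cells.

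The samples were labelled as articular cartilage, and chondrocyte genes were read in all 8 libraries, with none of the 12 chondrocyte markers at 0 and their summed level between 323 and 908 TPM. Marrow and blood RNA was also present: the 4 hemoglobin genes took 26.5% to 37.7% of TPM. Total expected counts were 13189181 to 18533609 per library. Oscar had 42 to 118 expected counts in the WT libraries and 0 in the 4 Oscar-/- libraries, where a count of 0 allows up to 3. Cxcl12 at 292 to 457 TPM exceeded Col2a1, the main collagen gene of cartilage, at 59.5 to 209 TPM, in each of the 8 libraries.

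The stretch of 100 bases before the transcription start is shown for Cxcl12, Lepr and Ebf3 (RefSeq, GRCm38.p6). These members were picked from these data, as Lepr and Ebf3 lay nearest to Cxcl12 in TPM profile among the members. Lepr has a further promoter window, with its upstream part at chr4:101717656-101717905, that is not shown. Capitals mark a match to CCCNNGGGA, the pattern bound by early B cell factors, read on the other strand. The stretches lie at chr6:117168435-117168534 on the plus strand, chr4:101717307-101717406 on the plus strand and chr7:137314446-137314545 on the minus strand, and each is written 5′ to 3′ along its gene.
Cxcl12: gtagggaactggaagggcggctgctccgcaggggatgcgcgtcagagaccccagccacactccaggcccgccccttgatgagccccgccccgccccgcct
Lepr: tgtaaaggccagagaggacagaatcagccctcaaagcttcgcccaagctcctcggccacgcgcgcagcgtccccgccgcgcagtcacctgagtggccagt
Ebf3: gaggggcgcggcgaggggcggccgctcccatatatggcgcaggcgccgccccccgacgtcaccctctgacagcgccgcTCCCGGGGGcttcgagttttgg

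The 3 stretches were rich in G and C, at 73.0% for Cxcl12, 65.0% for Lepr and 75.0% for Ebf3. Promoter windows of 300 bases were found for 7 of the 10 members, with 9 windows in all. CCCNNGGGA, searched on both strands, was in 1 of these members, Ebf3, where the match TCCCGGGGG began 22 bases before the start, and in 6.56% of all 32851 windows. GTAAACA, the forkhead pattern, was in Pdzrn4 and in 3.65% of all windows. GGGNNTTCC, an NF-kappaB pattern that can overlap a CCCNNGGGA match at its GGG, was in 0 of the members and in 5.82% of all windows.

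By level, Cxcl12 stood far above the other members, with a mean of 391 TPM over the 8 libraries and rank 188 of the 12538 genes tested. Vcam1 followed at 42.0 TPM, Esm1 at 14.1, Lepr at 9.77, Kitl at 6.49, Angpt1 at 3.68, Ebf3 at 3.46, Foxc1 at 3.06, Il7 at 0.881 and Pdzrn4 at 0.139. The ranges over libraries of Cxcl12 and Vcam1 overlapped with no other member's. Those of Esm1 and Lepr, of Lepr and Kitl, of Kitl and Angpt1, and of Angpt1, Ebf3 and Foxc1 overlapped. With 1 library per condition, the order of neighbouring libraries within a gene has no spread to be set against.

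**Figure D1:**
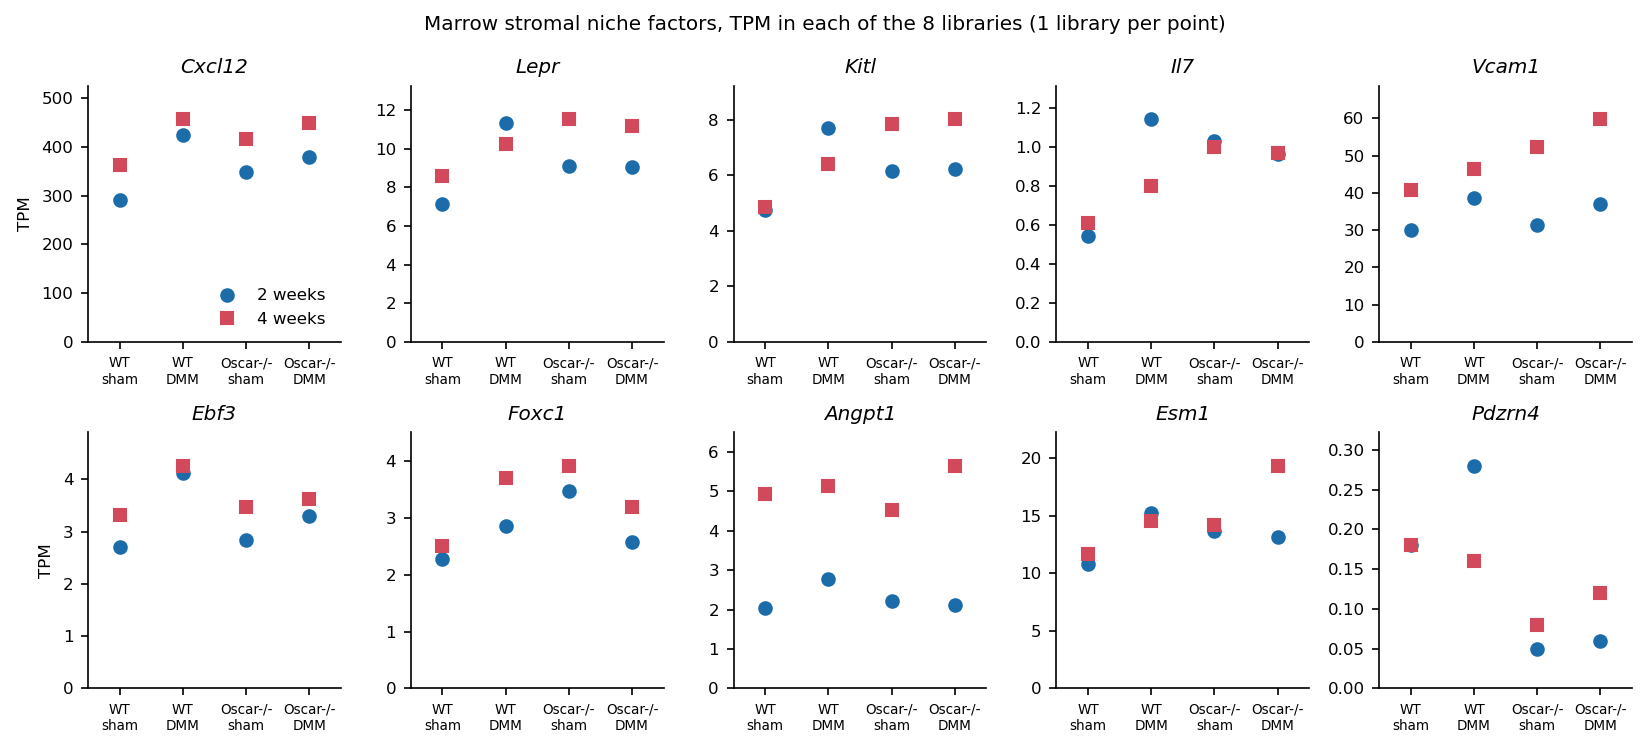
TPM of the 10 members (y axis, own scale in each panel) in the 4 groups (x axis), with 2-week libraries as circles and 4-week libraries as squares, 1 library per point. Angpt1 lies at 2.05 to 2.78 TPM at 2 weeks and at 4.54 to 5.65 TPM at 4 weeks, and Foxc1 on TPM is higher after DMM than after sham in WT and lower in Oscar-/-, an order that TMM scaling turns in WT at 2 weeks.

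In WT the DMM library stood above the sham library at both weeks on TPM for all 9 members above the filter, but no member passed the edgeR test of DMM against sham in WT. On TPM, 52.6% of all genes tested showed the same order in WT. After TMM scaling, which sets the libraries on a common level through the bulk of genes, the order held for 8 of the 9 members, all but Foxc1, and for 31.4% of all genes. In Oscar-/- 4 of the 9 members were above sham at both weeks on TPM, against 14.6% of all genes, namely Cxcl12, Kitl, Vcam1 and Ebf3. With TMM scaling Il7 joined them, for 5 of 9 against 33.0% of all genes. In these pooled tissues fewer cells of a type and less RNA per cell cannot be told apart.

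The edgeR model over all 8 libraries (week, genotype, surgery and their interaction, with the weeks in the place of replicates) called 0 of the 9 members for DMM against sham in WT, where it called 4.87% of all genes, 547 higher and 63 lower. At an unadjusted p under 0.05 there was 1 member, Ebf3, and 21.5% of all genes. DESeq2 called 0 members, and limma on log2(TPM + 1) called 1, Cxcl12 (log2 fold change 0.44, adjusted p = 0.0258). With limma the median over all genes was 0.17. The members' median edgeR log2 fold change was 0.24, against -0.01 over all genes. For the difference of the DMM response between genotypes edgeR called 0 of 9 members and 5.24% of all genes, 177 higher and 480 lower in Oscar-/-. DESeq2 and limma also called 0, and 1 member, Foxc1, had an unadjusted p under 0.05, as had 24.2% of all genes. The members' median for this interaction was -0.05, against -0.01 over all genes.

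The ligands come first. CXCL12 is the chemokine that retains blood stem cells and B cell precursors through its receptor CXCR4. In WT at 2 weeks Cxcl12 (chromosome 6, 117168535 to 117181367, plus strand) measured 292 TPM (sham) and 425 TPM (DMM), and in Oscar-/- 349 and 379 TPM. By 4 weeks the WT levels were 363 and 457 TPM and the Oscar-/- levels 416 and 449 TPM. Both WT DMM libraries lay above both WT sham libraries on TPM, while the Oscar-/- DMM and sham libraries overlapped. DMM over sham on TPM in WT was 1.46-fold at 2 weeks and 1.26-fold at 4 weeks, and in Oscar-/- 1.09-fold and 1.08-fold. With 12545 to 21453 expected counts per library, the counting error of these ratios was at most 0.02 on the log2 scale. That error does not cover the choice of scaling. The Oscar-/- overlap was not seen after TMM scaling, where both DMM libraries lay above both sham libraries in each genotype. TMM-scaled levels at 2 and 4 weeks were 1026.1 and 900.05 in WT sham and 1185.2 and 1095.2 in WT DMM. In Oscar-/- they were 1034.7 and 1066.6 after sham and 1147.5 and 1262.9 after DMM. The edgeR log2 fold change of DMM against sham in WT was 0.24 (SE 0.11, adjusted p = 0.236), and that of the interaction was -0.05 (95% interval -0.39 to 0.30, adjusted p = 0.890), or -0.16 to 0.06 when a library was left out.

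Kitl (chromosome 10, 100015630 to 100100416, plus strand) encodes stem cell factor, the ligand of the receptor KIT. WT cartilage held 4.75 TPM after sham and 7.70 TPM after DMM at 2 weeks, and 4.87 and 6.42 TPM at 4 weeks. Oscar-/- cartilage held 6.16 and 6.21 TPM at 2 weeks, and 7.83 and 8.01 TPM at 4 weeks. The WT sham libraries were the lowest of each week, and sham and DMM lay within 0.2 TPM of each other in Oscar-/- at both weeks. In edgeR the log2 fold change of DMM against sham was 0.34 in WT (SE 0.17, adjusted p = 0.290), and Oscar-/- against WT after sham gave 0.39 (SE 0.18, adjusted p = 0.269). The interaction was -0.22 (95% interval -0.76 to 0.32, adjusted p = 0.630), and leaving out the 2-week DMM library of WT or of Oscar-/- gave 0.05 and 0.04.

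Il7 (chromosome 3, 7569994 to 7613760, minus strand) encodes the cytokine on which mouse B cell precursors depend. Levels were low, at 22 to 53 expected counts. In WT they were 0.54 TPM after sham and 1.14 TPM after DMM at 2 weeks, and 0.61 and 0.80 TPM at 4 weeks. In Oscar-/- they were 1.03 and 0.96 TPM at 2 weeks, and 1.0 and 0.97 TPM at 4 weeks. Both WT sham libraries were below the other 6. The edgeR estimates carried wide errors at this depth: 0.63 for DMM against sham in WT (SE 0.31, adjusted p = 0.261), 0.74 for Oscar-/- against WT after sham (SE 0.31, adjusted p = 0.237) and -0.50 for the interaction (95% interval -1.42 to 0.42, adjusted p = 0.502).

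Angpt1 (chromosome 15, 42424723 to 42676977, minus strand) encodes angiopoietin-1, the ligand of the receptor TEK on endothelial and stem cells, and it was the one member that passed an edgeR test: it rose from 2 to 4 weeks. At 2 weeks WT had 2.05 TPM after sham and 2.78 after DMM, and Oscar-/- had 2.22 and 2.12, a mean of 2.29. At 4 weeks WT had 4.94 and 5.15 TPM and Oscar-/- had 4.54 and 5.65 TPM, a mean of 5.07. All 4 libraries of 4 weeks lay above all 4 of 2 weeks. The edgeR log2 fold change of 4 against 2 weeks was 0.84 (SE 0.11, adjusted p = 0.000869), and with the week term in the model it was called under every alternative, with values of 0.70 to 0.98. For DMM against sham in WT the value was 0.05 (SE 0.16, adjusted p = 0.890), -0.12 without the WT DMM library of 2 weeks and -0.07 without the WT sham library of 4 weeks. The interaction was 0.22 (95% interval -0.27 to 0.71, adjusted p = 0.585), -0.07 with limma on log2(TPM + 1) and -0.11 without the Oscar-/- DMM library of 4 weeks.

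Over the 9 members, 1 was called for 4 against 2 weeks by edgeR, while 22.1% of all genes were, 1403 higher and 1372 lower. A level in every 4-week library above that in every 2-week library was found on TPM for 2 of the 9 members, Angpt1 and Vcam1, and for 27.9% of all genes, and after TMM scaling for Angpt1 alone and for 10.6% of all genes. Markers of megakaryocytes and platelets, which also hold angiopoietin-1, moved with week. All 6 of them (Pf4, Ppbp, Itga2b, Gp9, Gp1bb and Gp1ba) were called higher at 4 weeks, none was at 0, and their summed level was 107 to 166 TPM at 2 weeks and 495 to 829 TPM at 4 weeks. Their part in the Angpt1 values was not tested. By the file names all libraries of 2 weeks shared a sequencing lane that no library of 4 weeks was on, so week and lane cannot be told apart, and at 4 weeks neither can genotype and lane.

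**Figure D2:**
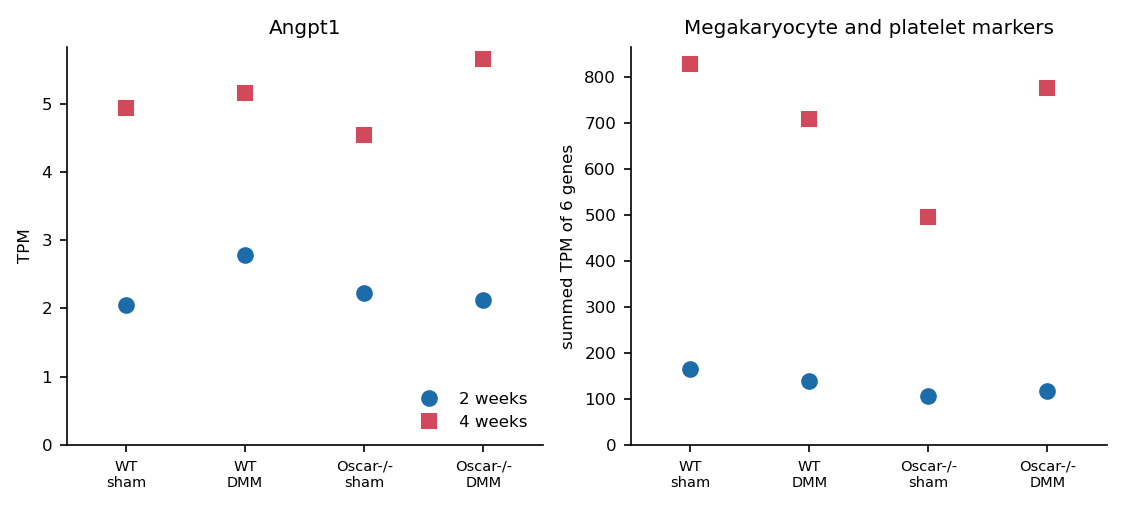
Angpt1 in TPM (left) and the summed TPM of 6 megakaryocyte and platelet markers (right) in the 4 groups, 1 library per point, with 2 weeks as circles and 4 weeks as squares. In both panels every 4-week point lies above every 2-week point, at 4.54 to 5.65 against 2.05 to 2.78 TPM for Angpt1 and at 495 to 829 against 107 to 166 TPM for the markers.

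Vcam1 and Lepr are the surface proteins of the list. VCAM1 holds blood cells that carry the integrin of ITGA4 and ITGB1, and is also made by endothelial cells and macrophages. For Vcam1 (chromosome 3, 116109949 to 116129688, minus strand) the WT levels after sham and DMM were 30.1 and 38.7 TPM at 2 weeks and 40.9 and 46.4 TPM at 4 weeks. The Oscar-/- levels were 31.3 and 36.9 TPM, then 52.4 and 59.7 TPM. On TPM, DMM lay above sham in each of the 4 pairs, and every 4-week library lay above every 2-week library. After TMM scaling the week order did not hold. WT sham at 4 weeks, at 131.48, lay below WT sham (142.82), WT DMM (144.34) and Oscar-/- DMM (151.38) at 2 weeks. The edgeR values for DMM against sham were 0.08 in WT (SE 0.15, adjusted p = 0.794) and 0.31 in Oscar-/- (SE 0.15, adjusted p = 0.447), with an interaction of 0.23 (95% interval -0.22 to 0.69, adjusted p = 0.531). The WT value turned to -0.10 when the WT DMM library of 2 weeks was left out and to -0.15 without the WT sham library of 4 weeks, and the interaction was -0.06 with limma on log2(TPM + 1) and -0.02 without the WT sham library of 2 weeks.

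For 4 against 2 weeks edgeR gave Vcam1 a log2 fold change of 0.24 (SE 0.10, adjusted p = 0.125). This value passed the threshold with limma on log2(TPM + 1), at 0.52, with total counts without TMM, at 0.37, with all genes that had a count, at 0.22, and without the WT sham library of 2 or of 4 weeks, at 0.36 each. Of 8 macrophage markers edgeR called 3 higher at 4 weeks, C1qa, C1qb and C1qc, in a comparison where it called 22.1% of all genes, 1403 higher. The other macrophage markers were not called, and Csf1r (-0.06) and Vsig4 (-0.10) had values below 0. None was at 0 TPM, and the sum of the markers was 179 to 266 TPM at 2 weeks and 304 to 373 TPM at 4 weeks. With limma on log2(TPM + 1) the median over all genes was 0.23 for this comparison. The part of macrophages in the Vcam1 values was not tested.

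Lepr (chromosome 4, 101717404 to 101815352, plus strand) encodes the leptin receptor, the marker by which these stromal cells are named. In WT it measured 7.13 TPM (sham) and 11.3 TPM (DMM) at 2 weeks, then 8.59 and 10.3 TPM at 4 weeks. In Oscar-/- the same pairs were 9.12 and 9.04 TPM, then 11.5 and 11.2 TPM. WT sham was the lowest library of each week, and in Oscar-/- the DMM and sham libraries differed on TPM by less than their counting error of 0.08 (2 weeks) and 0.07 (4 weeks) on the log2 scale. The edgeR value for DMM against sham in WT was 0.27 (SE 0.13, adjusted p = 0.251), and for Oscar-/- against WT after sham 0.35 (SE 0.13, adjusted p = 0.189). The interaction was -0.24 (95% interval -0.64 to 0.15, adjusted p = 0.441).

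Of the transcription factors, Foxc1 had DMM ratios on opposite sides of 1 in the 2 genotypes on TPM, though not at 2 weeks after TMM scaling. FOXC1 is a forkhead factor that LepR+ cells need to keep Cxcl12 and Kitl high. In WT Foxc1 (chromosome 13, 31806633 to 31812476, plus strand) measured 2.28 TPM after sham and 2.86 TPM after DMM at 2 weeks, and 2.50 and 3.70 TPM at 4 weeks. Oscar-/- had the opposite order, 3.48 and 2.58 TPM, then 3.92 and 3.19 TPM. Thus DMM was 1.25-fold and 1.48-fold of sham in WT and 0.741-fold and 0.814-fold of sham in Oscar-/-, with 210 to 357 expected counts per library. After TMM scaling the WT DMM library of 2 weeks lay just below its sham library, so that at that week the ratio was under 1 in both genotypes. On TPM, Lepr and Il7 also had Oscar-/- ratios under 1 at both weeks, but within their counting error. With TMM scaling the Oscar-/- ratio was above 1 for Il7 at both weeks and for Lepr at 4 weeks.

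In edgeR the Foxc1 interaction was -0.48 (SE 0.20, 95% interval -0.93 to -0.03, adjusted p = 0.179), which did not pass after adjustment. DMM against sham was 0.22 in WT (SE 0.15, adjusted p = 0.401) and -0.26 in Oscar-/- (SE 0.14, adjusted p = 0.521), and Oscar-/- against WT after sham was 0.51 (SE 0.15, adjusted p = 0.104). A single library bore on these calls. Without the WT sham library of 2 weeks the interaction was -0.76 (adjusted p = 0.0402) and the sham comparison 0.77 (adjusted p = 0.026). Without the WT sham library of 4 weeks the WT value was -0.03. The WT sham library of 2 weeks also had the highest hemoglobin share, 37.7%, and the highest sum of 5 skeletal muscle markers, 149 TPM against 29.1 to 83.2 TPM in the other 7 libraries, whose part in the Foxc1 values was not tested.

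Ebf3 (chromosome 7, 137193673 to 137314445, minus strand) encodes an early B cell factor that, despite the family's name, serves in the stroma. The WT levels were 2.71 TPM after sham and 4.13 TPM after DMM at 2 weeks, and 3.31 and 4.26 TPM at 4 weeks. Those of Oscar-/- were 2.84 and 3.30 TPM, then 3.47 and 3.63 TPM. Both WT DMM libraries lay above all 6 others on TPM. After TMM scaling the WT DMM library of 4 weeks lay slightly below both Oscar-/- DMM libraries. With edgeR, DMM against sham in WT gave 0.29 (SE 0.13, adjusted p = 0.223). The interaction was -0.05 (95% interval -0.45 to 0.35, adjusted p = 0.901), with a sign that turned in 4 of the 8 fits that left a library out, to at most 0.09.

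Esm1 and Pdzrn4 complete the list. Esm1 (chromosome 13, 113209659 to 113218098, plus strand) encodes endocan, a secreted proteoglycan known also from endothelial tip cells. WT levels after sham and DMM were 10.8 and 15.2 TPM at 2 weeks, then 11.6 and 14.6 TPM at 4 weeks. Oscar-/- levels were 13.7 and 13.1 TPM, then 14.2 and 19.3 TPM. The WT sham libraries were the lowest of each week and Oscar-/- DMM at 4 weeks was the highest. The edgeR value was 0.19 for DMM against sham in WT (SE 0.17, adjusted p = 0.545) and 0.13 for the interaction (95% interval -0.40 to 0.66, adjusted p = 0.783). The WT value was -0.02 without the WT sham library of 4 weeks, and the interaction was -0.07 without TMM, -0.19 with limma on log2(TPM + 1), -0.12 without the WT sham library of 2 weeks and -0.28 without the Oscar-/- DMM library of 4 weeks.

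Endothelial markers moved with surgery in WT. Of 12 such markers 8 were called higher after DMM in WT, where edgeR called 4.87% of all genes, 547 higher and 63 lower. No endothelial marker was at 0, and their sum was 67.8 and 90.4 TPM in WT sham against 137 and 139 TPM in WT DMM. In Oscar-/- the sums were 104 and 99.0 TPM after sham and 108 and 104 TPM after DMM. Their part in the values of Esm1, Vcam1 and Angpt1 was not tested.

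Pdzrn4 (chromosome 15, 92396881 to 92771819, plus strand) was read 3 to 20 times per library and was left out of the test by the filter. Its expected counts were 14, 20, 10 and 7 in the WT libraries and 3, 4, 4 and 9 in the Oscar-/- libraries, in the order sham and DMM at 2 weeks, then sham and DMM at 4 weeks. These were levels of 0.16 to 0.28 TPM in WT and 0.05 to 0.12 TPM in Oscar-/-, some within 1 count of the floor of 3. With all genes that had a count in the edgeR fit, Oscar-/- against WT after sham gave -1.56 (SE 0.70, adjusted p = 0.257).

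**Figure D3:**
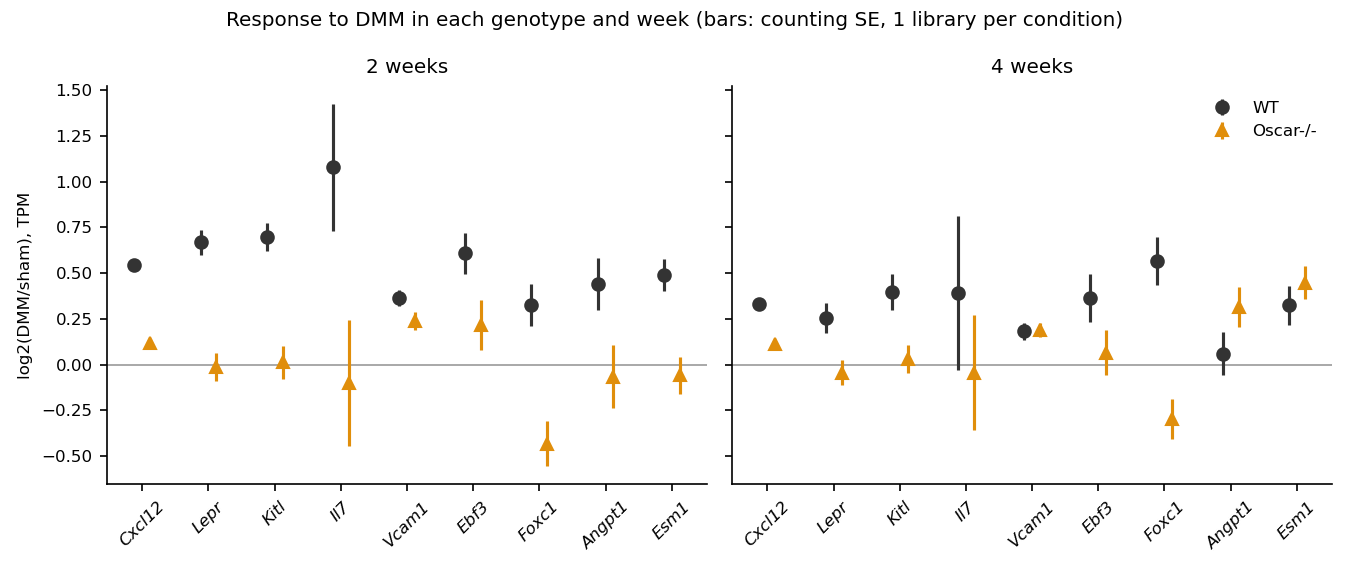
Log2 ratio of DMM over sham on TPM (y axis) of the 9 tested members in WT (circles) and Oscar-/- (triangles) at 2 weeks (left) and 4 weeks (right), with bars for the counting SE and 1 library per condition. All WT points lie above 0 on TPM (Foxc1 at 2 weeks does not after TMM scaling), Foxc1 lies below 0 in Oscar-/- at both weeks, and the bars of Il7 are the widest.

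The study's own measure, DIF, subtracts the WT log2(DMM/sham) from the one of Oscar-/-. On TPM, DIF at 2 weeks was below 0 for all 10 members, from -0.13 (counting SE 0.06) for Vcam1 to -1.18 (counting SE 0.49) for Il7. Cxcl12 had -0.42 (counting SE 0.02), Lepr -0.68 (0.10), Kitl -0.69 (0.12), Ebf3 -0.39 (0.17), Foxc1 -0.76 (0.17), Angpt1 -0.51 (0.22) and Esm1 -0.55 (0.13). Pdzrn4 had -0.37 with a counting SE of 1.21, so its sign was not detectable at this depth. The 9 tested members had a median of -0.55, while the median over all genes was -0.41, and 0 of the 9 lay above 0.

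At 4 weeks DIF was -0.86 (counting SE 0.17) for Foxc1, -0.44 (0.53) for Il7, -0.37 (0.12) for Kitl, -0.30 (0.11) for Lepr, -0.30 (0.18) for Ebf3 and -0.22 (0.02) for Cxcl12. Vcam1 had 0.01 (0.06), Esm1 0.12 (0.14), Angpt1 0.26 (0.16) and Pdzrn4 0.75 (1.12). The median of the 9 was -0.30, against -0.22 over all genes. On the TMM scale the medians of the 9 were -0.14 and -0.09 at 2 and 4 weeks, against -0.01 and -0.02 over all genes, and Cxcl12 came to -0.06 and -0.04. At 2 weeks the sign turned for Vcam1, to 0.26, and for Ebf3, to 0.04. Foxc1 kept -0.35 and -0.66 on that scale.

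DIF is made of a WT and an Oscar-/- ratio. The median log2(DMM/sham) of the 9 members in WT, on TPM, came to 0.54 (2 weeks) and 0.33 (4 weeks), against 0.35 and 0.05 over all genes. In Oscar-/- the members' median was -0.01 (2 weeks) and 0.07 (4 weeks), against -0.03 and -0.15 over all genes. Hemoglobin took 37.7% of TPM in WT sham and 30.7% in WT DMM at 2 weeks, and 29.6% and 31.0% at 4 weeks. In Oscar-/- the share was 32.4% after sham and 34.5% after DMM at 2 weeks, and 26.5% and 37.0% at 4 weeks. Its part in the TPM ratios was measured for DIF by leaving these genes out of TPM, which gave Cxcl12 -0.22 and -0.03 and Foxc1 -0.56 and -0.67 at 2 and 4 weeks.

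**Figure D4:**
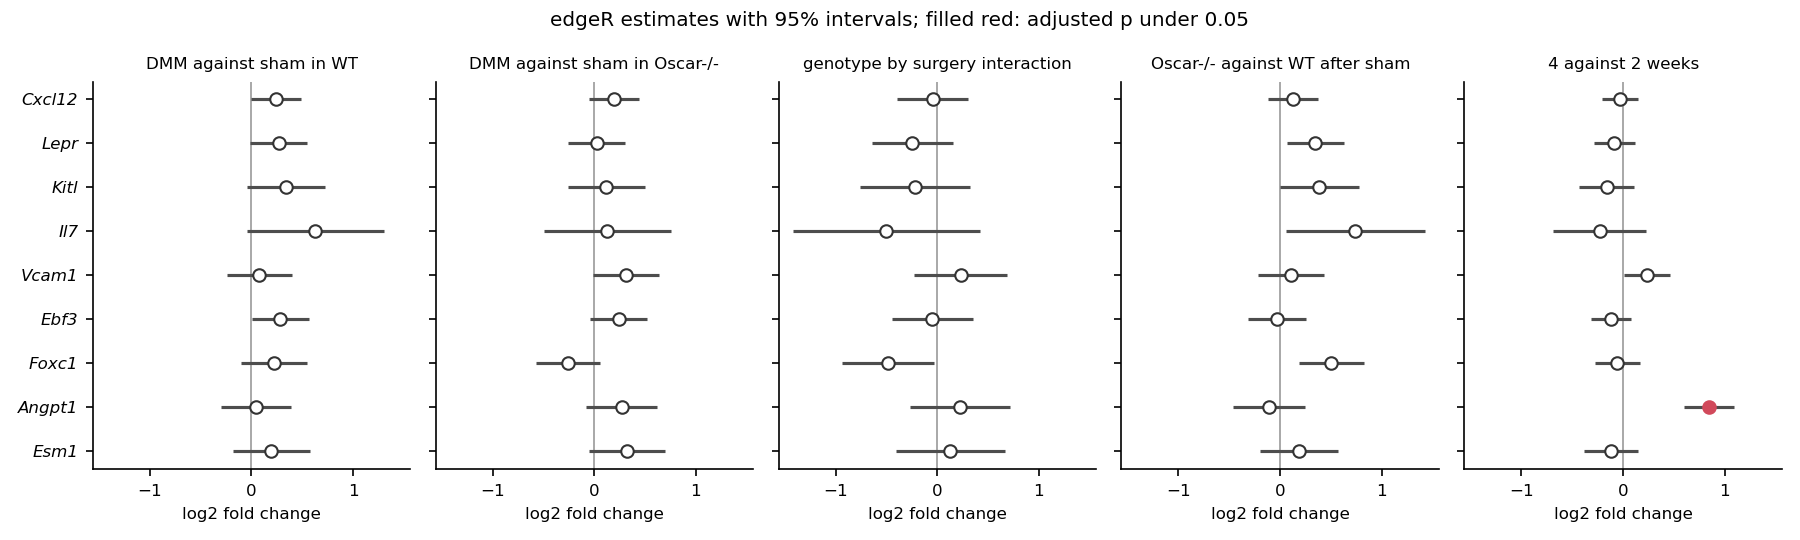
edgeR log2 fold changes (x axis) of the 9 tested members (y axis) with 95% intervals in 5 comparisons, filled where the adjusted p was under 0.05. Angpt1 at 4 against 2 weeks, at 0.84, is the one filled point.

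For DMM against sham in Oscar-/- edgeR called 0 of the 9 members and 0.112% of all genes, 1 higher and 13 lower. DESeq2 and limma called 0, and 0 had an unadjusted p under 0.05, against 11.6% of all genes. The members' log2 fold changes ran from -0.26 for Foxc1 to 0.32 for Esm1, with 8 of 9 above 0 and a median of 0.20, against 0.01 over all genes. For Oscar-/- against WT after sham edgeR called 0 of 9 members and 2.18% of all genes, 250 higher and 23 lower. The unadjusted p was under 0.05 for 3 members, Foxc1, Lepr and Il7, and for 18.7% of all genes, and DESeq2 and limma called 0 members. The median of the members was 0.19, against 0.00 over all genes, with 7 of 9 above 0. Each of these comparisons shares its sham libraries with the WT comparison or the interaction, so the values are given side by side only.

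Other genes of LepR+ stroma were drawn on to place the members. Of 18 listed genes 17 were tested, and 5 of these were called by edgeR for DMM against sham in WT, all higher, with a list median of 0.37. The share of all genes called there was 4.87%, with 547 higher and 63 lower. Prrx1, a homeobox gene of limb mesenchyme, rose by 0.99 on the log2 scale (SE 0.12, adjusted p = 0.00109), from 3.0 to 7.42 TPM at 2 weeks and from 2.71 to 5.86 at 4 weeks. The platelet-derived growth factor receptors Pdgfrb (0.70, adjusted p = 0.00248) and Pdgfra (0.61, adjusted p = 0.00503), Snai2, a repressor of epithelial genes (0.61, adjusted p = 0.0414), and Ebf1, a relative of Ebf3 (0.49, adjusted p = 0.0294), also rose. The most abundant genes of the list were not called by edgeR: Spp1, which encodes osteopontin, gave 0.15 (adjusted p = 0.616), Hp -0.22 (adjusted p = 0.265), Igfbp4 0.37 (adjusted p = 0.0565) and Gas6 0.46 (adjusted p = 0.0706). DESeq2 called Igfbp4 and Gas6 of these, and limma called Igfbp4, Gas6 and Spp1.

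In the interaction 3 of the 17 were called, all lower in Oscar-/-: Prrx1 at -1.19 (SE 0.17, adjusted p = 0.00756), Pdgfra at -0.89 (SE 0.14, adjusted p = 0.0108) and Pdgfrb at -0.69 (SE 0.14, adjusted p = 0.0249) in edgeR. The share of all genes called there was 5.24%, with 177 higher and 480 lower. In Oscar-/- sham against WT sham, where edgeR called 2.18% of all genes, 3 of the 17 were called higher. They were Prrx1 at 0.80, Pdgfra at 0.70 and Igfbp5 at 0.52 (edgeR adjusted p = 0.0121, 0.00998 and 0.0338), of which Igfbp5 is named after its values were seen. None of these 3 calls was left without the Oscar-/- sham library of 2 weeks, without that of 4 weeks or without a term for week, and limma called Spp1 alone. Prrx1, Pdgfra, Pdgfrb and Snai2 are also expressed by fibroblasts, and Pdgfrb by pericytes. Of 10 fibroblast markers 5 were called higher after DMM in WT and 5 lower in the interaction, against 4.87% and 5.24% of all genes called. No fibroblast marker was at 0. Their sum was 1174 and 995 TPM in WT sham, 1782 and 1674 in WT DMM, 1926 and 1685 in Oscar-/- sham and 1446 and 1107 in Oscar-/- DMM. Of 6 tested pericyte and smooth muscle markers 3 were called higher after DMM in WT and 4 lower in the interaction, and of 8 osteoblast and osteocyte markers 3 and 4, with none at 0. The pericyte sums were 25.6 and 30.0 TPM in WT sham, 57.0 and 67.7 in WT DMM, 51.4 and 39.6 in Oscar-/- sham and at most 47.0 in Oscar-/- DMM, and the osteoblast and osteocyte sums were 1599 and 1443, 2655 and 2891, 2638 and 2163, and 1997 and 1878 TPM in the same order of groups. The part of these cell types in the stromal values was not tested. For 4 against 2 weeks edgeR called 1 gene of the stromal list higher and 7 lower, and 22.1% of all genes, 1403 higher and 1372 lower. With limma on log2(TPM + 1) the list had 4 higher and 1 lower, and the median over all genes was 0.23.

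Among the receptors and partners, the main receptors of the abundant ligands did not pass a surgery test. Cxcr4, the receptor of CXCL12 on blood cells, was at 95.8 to 175 TPM with a log2 fold change of -0.11 for DMM against sham in WT (edgeR adjusted p = 0.505) and 0.07 for the interaction (adjusted p = 0.768). Kit, the receptor of stem cell factor, was at 5.42 to 11.5 TPM with -0.04 and -0.06 (edgeR adjusted p = 0.874 and 0.857). Itgb1, Crlf2 and Il2rg, the other abundant genes of the list, gave 0.27, -0.05 and 0.35 for DMM against sham in WT (edgeR adjusted p = 0.0965, 0.838 and 0.103). Lep, the gene of leptin, was at 0 to 0.17 TPM and was not tested.

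The 3 of the 12 receptors and partners called for DMM against sham in WT were Tie1 (0.79, adjusted p = 0.00164), Tek (0.80, adjusted p = 0.00648) and Ackr3 (0.49, adjusted p = 0.0384), all higher by edgeR. Over all genes edgeR called 4.87% in this comparison and 5.24% in the interaction. Tek is the receptor of angiopoietin-1 and Tie1 its partner, both among the 12 endothelial markers, and Ackr3 is the scavenger receptor of CXCL12. The same 3 were called lower in the interaction, Ackr3 at -1.15 (SE 0.16, edgeR adjusted p = 0.00838), Tek at -0.92 (adjusted p = 0.0266) and Tie1 at -0.61 (adjusted p = 0.0409). Ackr3 stood at 4.59 and 7.18 TPM in WT sham and DMM and at 8.85 and 5.33 TPM in Oscar-/- sham and DMM at 2 weeks. At 4 weeks it stood at 4.94, 7.76, 8.75 and 5.10 TPM. On this scale DMM lay above sham in both WT pairs and below it in both Oscar-/- pairs, the order also seen on TPM in Foxc1. For 4 against 2 weeks, where edgeR called 22.1% of all genes, Cxcr4 (0.26, edgeR adjusted p = 0.0167) and Crlf2 (0.44, adjusted p = 0.00493) were higher. Ackr3 (-0.25, edgeR adjusted p = 0.0473) and Il7r (-0.43, adjusted p = 0.0213) were lower, Il7r being named after its values were seen. The 2 lower calls were lost with limma on log2(TPM + 1), where 4 receptors and partners were higher and 0 lower, and without TMM, where 3 were higher and 0 lower.

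The cells that the niche serves were followed through their own genes. Of 10 blood stem and progenitor genes edgeR called 3 higher after DMM in WT, Cd34 (0.54, adjusted p = 0.00573), Ly6a (0.56, adjusted p = 0.0135) and Mecom (1.24, adjusted p = 0.0344), of which endothelial and stromal cells also express Cd34 and Ly6a. In the interaction 1 was called, Cd34 at -0.68 (edgeR adjusted p = 0.0196). The shares of all genes called by edgeR were 4.87% for DMM against sham in WT and 5.24% for the interaction. Gata2 gave 0.27 for DMM against sham in WT (edgeR adjusted p = 0.211).

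Of 8 early B cell genes, whose cells depend on IL-7 and CXCL12, edgeR called 2 higher after DMM in WT, against 4.87% of all genes. They were Rag1 (0.80, adjusted p = 0.00951) and Pax5 (0.54, adjusted p = 0.0245). None was called in the interaction, against 5.24% of all genes, and the median of the 8 was -0.19. DESeq2 and limma also called 0 there, and 1 gene, Rag1, had an unadjusted edgeR p under 0.05, as had 24.2% of all genes. All 8 were called lower at 4 than at 2 weeks by edgeR, among them Cd79a (-0.56, adjusted p = 0.000236), Igll1 (-0.75, adjusted p = 0.000581) and Vpreb1 (-0.48, adjusted p = 0.0427). In that comparison edgeR called 22.1% of all genes, 1403 higher and 1372 lower. The median of the 8 was -0.52, and with limma on log2(TPM + 1) it was -0.20 with 3 of 8 called, while 4 to 7 of 8 were called by edgeR when a library was left out. Il7 itself gave -0.23 and Cxcl12 -0.03 in the same comparison, neither of them called by edgeR. With limma on log2(TPM + 1) Cxcl12 turned to 0.23 (adjusted p = 0.0288), where the median over all genes was also 0.23.

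The calls in these lists depended on which libraries were kept. Of the 7 interaction calls 5 remained with DESeq2, 3 with limma, 1 without the WT DMM library of 2 weeks and 0 without that of 4 weeks. Leaving out an Oscar-/- library left 2 to 4 of the 7, and without a term for week 0 remained. Of the 13 calls for DMM against sham in WT 9 remained with each of DESeq2 and limma, 3 without either WT DMM library and 0 without a term for week.

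**Figure D5:**
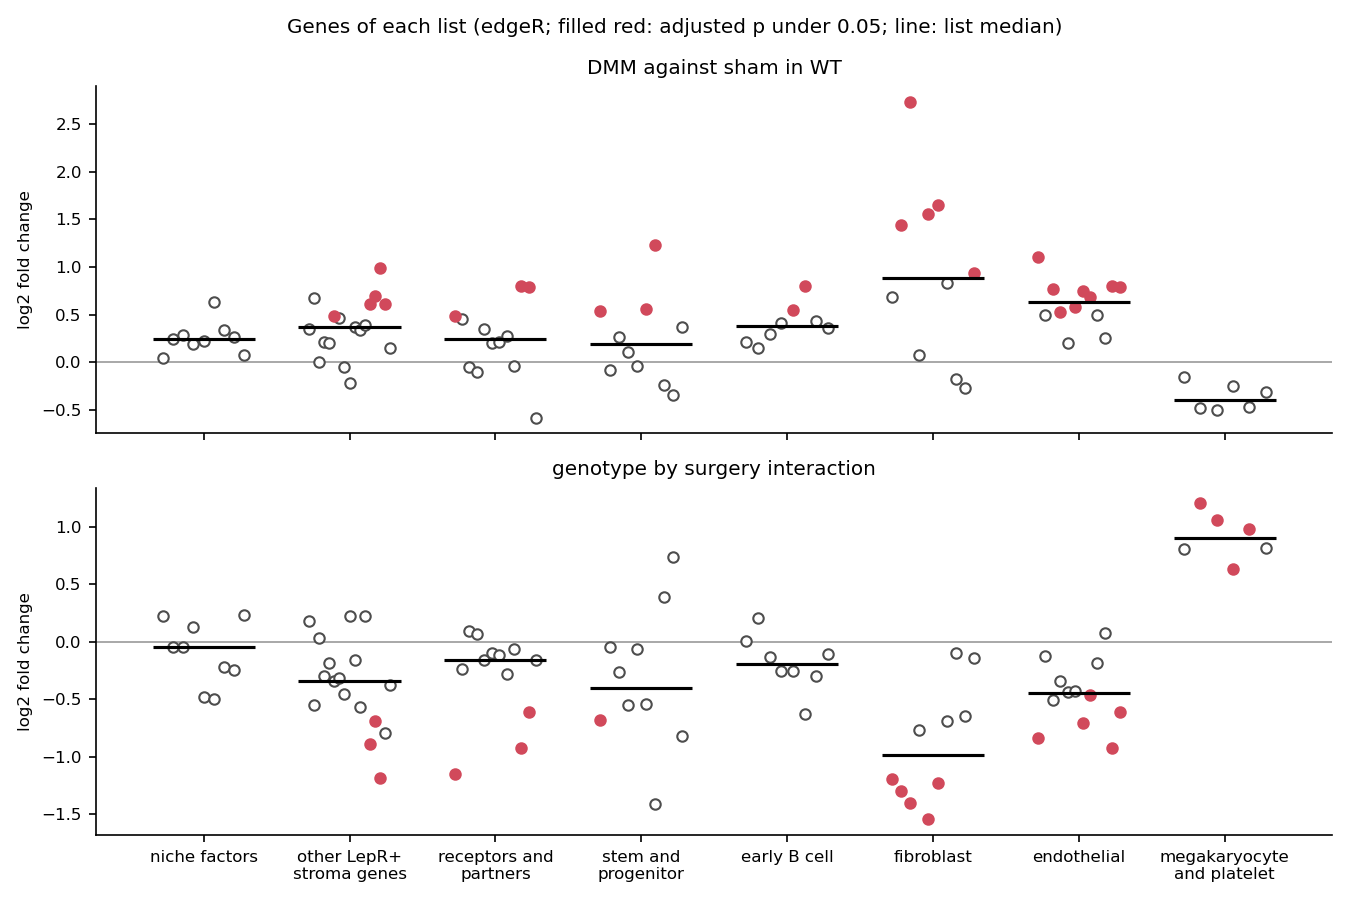
edgeR log2 fold changes (y axis) of each gene of the niche factors and of 7 other lists (x axis) for DMM against sham in WT (top) and for the genotype by surgery interaction (bottom), with filled points at an adjusted p under 0.05 and a line at each list's median. The niche factors hold no filled point in either panel, with medians of 0.24 and -0.05.

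The members did not move as a unit. Likeness was taken as the root mean square difference of log2(TPM), each gene centred on its own mean over the 8 libraries, a value of 0 meaning the same profile. Among pairs of the 9 tested members it ran from 0.094 for Cxcl12 with Lepr and for Cxcl12 with Ebf3 to 0.70 for Il7 with Angpt1. Il7 had only 22 to 53 expected counts per library, so counting error adds to its distances. Kitl lay nearest to Lepr, at 0.098, and Angpt1 was at least 0.35 from each other member.

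Over 12493 genes above 0 in all 8 libraries, the profiles nearest to Cxcl12 were those of Rala (0.051), Gimap6 (0.058), Ism1 (0.058), Gpr182 (0.062) and Slc35g1 (0.067), with Lepr in place 29 and Ebf3 in place 30. Nearest to Lepr were Rala (0.069), Hpgd (0.071), Arhgap5 (0.074), Gpr182 (0.079) and Selenop (0.084), with Cxcl12 in place 11 and Kitl in place 12. These values share libraries, depth and the TPM scale, and they are a description.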

How the data were processed

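Cartilage RNA of 8 pooled libraries was sequenced from stranded mRNA libraries. The authors trimmed the reads, aligned them with STAR and counted genes with RSEM (the submitters' notes name STAR 2.6.0a, RSEM 1.2.17 and FastQC 0.11.8 and a human build, the paper GRCm38, and all identifiers are of mouse). Deposited expected counts, which RSEM estimates, were rounded for the count tests. Deposited TPM values add to a fixed total, so abundant genes move all others. The FPKM column was not used.

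Symbols, gene types and positions came from GENCODE M21 (GRCm38), where 52403 of 52636 identifiers were found. The 12538 protein-coding genes with TPM over 1 in at least 1 library were tested with edgeR 4.0.16 (quasi-likelihood, TMM, Benjamini-Hochberg over all of them, R 4.3.3), with terms for week, genotype, surgery and the interaction and 3 residual degrees of freedom. No condition was repeated, so p-values measure the spread left after these terms. The script was tested on simulated data. DESeq2 1.42.0 and limma 3.58.1 (pseudocount 1), other scalings and filters, and leaving out each library were alternatives. Counting errors cover counting alone. The named genes were the 10 members, the 4 most abundant and the called genes of each further list, and the 5 nearest profiles, and 1 of these genes is not reported here. The members and lists were chosen with earlier results of these data known.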

Additional observations from a re-analysis of the deposited data

How the results depend on the processing

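No paired analysis was possible because each condition had 1 pooled library. The model carried a term for week. A fit without a library has 2 residual degrees of freedom and assumes that the lone library left in a condition varies like the others. Over all 9 tested members and 5 comparisons, 638 of 711 alternative values kept sign and side of the threshold. Another 59 changed sign, and 14 kept their sign but passed the threshold. Cxcl12 for 4 against 2 weeks with limma did both and is counted among the sign changes. The cause was not tested. Called members numbered 1 with limma for DMM against sham in WT (Cxcl12) and 1 with all genes that had a count for DMM against sham in Oscar-/- (Vcam1, adjusted p = 0.0491). For Oscar-/- against WT after sham they numbered 1 without TMM (Foxc1) and 2 with all genes that had a count (Foxc1, Kitl). For 4 against 2 weeks they numbered 3 with limma (Angpt1, Vcam1, Cxcl12), 2 without TMM and 2 with all genes that had a count. The limma median over all genes was 0.23 for 4 against 2 weeks and 0.17 for DMM against sham in WT. The share of all genes called under each alternative is not given here, so these counts have no background beside them. Without a library the counts were 0 to 1 for the interaction and for Oscar-/- against WT after sham, 0 for each surgery comparison, and 1 to 2 for week.

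With limma the interaction was -0.057 for Vcam1, -0.071 for Angpt1 and -0.19 for Esm1, and without TMM -0.068 for Esm1. Without a library, DMM against sham in WT ran from -0.15 to 0.33 for Vcam1, -0.026 to 0.49 for Foxc1, -0.12 to 0.20 for Angpt1 and -0.022 to 0.44 for Esm1. The interaction without a library ran from -0.16 to 0.063 for Cxcl12, -0.52 to 0.054 for Kitl, -0.022 to 0.46 for Vcam1, -0.18 to 0.092 for Ebf3, -0.11 to 0.46 for Angpt1 and -0.28 to 0.47 for Esm1. Of 158 alternative DIF values 105 stayed within 1 counting error and 53 moved by more. Depth limits Il7 and Pdzrn4 most.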
